A study of Mus musculus with 20 samples.

Results

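The nuclear-encoded subunits of oxidative phosphorylation were followed at the RNA level in cultured granule neurons of the mouse cerebellum, small excitatory cells that fill its granule layer. The genes were taken by symbol: Nduf followed by a, b, c, s or v and a digit for complex I, Sdha to Sdhd for complex II, Uqcr for complex III, Cox4 to Cox8 for complex IV and Atp5 for complex V, without pseudogenes. This gave 84 of the 24411 genes measured, of which 37 belong to complex I, 4 to complex II, 8 to complex III, 18 to complex IV and 17 to complex V. A filter on low counts kept 81 of them for testing among 15284 genes and removed 3, Cox7b2, Cox8b and Cox8c. Genes were placed by symbol alone, so Ndufa4, now counted as a subunit of complex IV, stands here under complex I, and Atp5sl, also called Dmac2 and known as an assembly factor of complex I, stands under complex V.

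Oxidative phosphorylation makes most of a neuron's ATP. Complexes I and II pass electrons from NADH and succinate to ubiquinone, complex III passes them to cytochrome c and complex IV to oxygen, while complexes I, III and IV pump protons across the inner mitochondrial membrane and complex V, the ATP synthase, lets them back to make ATP. Each complex has a few catalytic core subunits and many small accessory subunits, and all except complex II also need subunits made from mitochondrial DNA, which are not analysed here.

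The 20 libraries form 4 groups of 5. Cultures of the active rescue carried an shRNA against mouse Kdm6b, a histone H3K27 demethylase, together with the catalytically active enzymatic domain of human KDM6B. Cultures of the dead rescue carried the same shRNA with a catalytically dead version of that domain, the shKdm6b cultures carried the shRNA without a rescue, and the control cultures are labelled only as control, with no statement of what they were infected with. Neurons were infected on day 1 in vitro, given AraC, which removes dividing cells, on day 2 and harvested on day 7; the 2 rescues hold an enzymatic domain and not a whole KDM6B protein, and neither the strain nor the age of the mice is given in the labels. The labels number the libraries 1 to 5 in each group without saying what a number stands for or whether replicates were separate cultures, so p-values measure only the spread between these samples.

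Library totals ran between 14200732 and 21179297 estimated counts, with 16873 to 17351 genes detected. The granule neuron markers were all measured (14 of 14, summed level 2326 to 10068 CPM, the count of a gene scaled to library size), while the Purkinje cell marker Pcp2 was at 0 in every library. Libraries numbered 4 and 5 stood apart in all groups: granule markers summed to 2326 to 3725 CPM in number 4 against 5690 CPM or more elsewhere, astrocyte and Bergmann glia markers to 13192 to 16487 CPM in number 4 against 8000 CPM or less elsewhere, and meningeal fibroblast markers to 24692 to 32178 CPM in number 5. In bulk RNA, fewer cells of a type and less RNA per cell cannot be told apart. The targeted gene Kdm6b averaged 212 ± 109 CPM in active rescue, 176 ± 92.2 CPM in dead rescue, 83.0 ± 28.3 CPM in shKdm6b and 144 ± 40.5 CPM in control (SD, n = 5 each), and it was lower in shKdm6b than in control in 5 of 5 same-numbered pairs (log2 difference -0.83, exact two-sided permutation test p = 0.0317). Without 1 of control 1, 2, 3 or 5 or of shKdm6b 4 or 5, the exact p was 0.0556 to 0.0794, with the direction kept. By number, both rescues were above control in numbers 1 to 3 and below it in numbers 4 and 5. Number 4 had 73.2 CPM in active rescue and 54.9 CPM in dead rescue against 81.2 CPM in control. Number 5 had 119 and 109 CPM against 187 CPM. Both rescues also carried the human domain, and whether its reads were counted under mouse Kdm6b was not tested. The rescue values may therefore not stand for the mouse gene alone.

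The subunit transcripts were abundant, taking up 0.737 to 1.94% of all counts of a library, and they were far from equal. Per kilobase of transcript, the highest mean level over the 20 libraries belonged to Cox8a, a small complex IV subunit, at 793 CPM per kb, followed by Cox4i1, the regulatory subunit 4 of complex IV, at 650 CPM per kb. Cox6a1, another small complex IV subunit, had 626 CPM per kb and Atp5b, the catalytic beta subunit of ATP synthase, 623 CPM per kb. Atp5a1, the alpha subunit that stands beside beta in the same hexamer, had 340 CPM per kb. These levels are means over libraries that differ in number and group, and they depend on the transcript chosen for the length. The lowest tested levels belonged to the tissue-restricted paralogue Cox4i2, with 0.725 CPM per kb, and to Cox6a2, with 1.17 CPM per kb.

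Where 2 or more genes encode alternative forms of a subunit, 1 form usually made up nearly all of the RNA. Cox4i1 held a median of 99.9% of the Cox4i1 and Cox4i2 level per kb over the 20 libraries, and Cox6a1 held 99.8% against 0.161% for Cox6a2, the heart and skeletal muscle form. Cox7a2 held 97.7% and its heart and muscle form Cox7a1 2.34%, with a range of 0.881 to 7.93%. Cox6b1 held 92.2% and Cox6b2, the form known from testis, 7.84%, with a range of 6.24 to 15.1%. The testis and muscle forms Cox7b2, Cox8b and Cox8c were at or near 0: Cox7b2 did not exceed 0.0531 CPM, Cox8b did not exceed 0.414 CPM, and Cox8c had no count in any library. A list of skeletal and cardiac muscle markers summed to 8.38 to 23.7 CPM.

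The membrane ring of ATP synthase is built from subunit c, which 3 genes encode with the same mature protein behind different import sequences. Atp5g3 held a median of 56.2% of their level per kb, Atp5g2 35.98% and Atp5g1 7.89%. The value of Atp5g1 depends on its transcript, since its annotated principal forms are 596 to 4715 bases long. Atp5g3 had 237, 283, 266, 250 and 189 CPM in active rescue numbers 1 to 5, 213, 305, 264, 373 and 207 CPM in dead rescue, 260, 250, 234, 503 and 216 CPM in shKdm6b, and 238, 228, 200, 435 and 184 CPM in control. Number 4 was the highest library in dead rescue, shKdm6b and control, number 5 was the lowest in every group, and the 4 groups overlapped.

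In the share of the minor form, Ndufa4 and Ndufa4l2 formed the exception among the paralogue pairs. Ndufa4 held a median of 99.0% of their joint level per kb, but Ndufa4l2, a gene known to be induced in low oxygen, held between 0.372 and 33.0%. Ndufa4l2 (a protein-coding gene at chr10:127514967-127517154, + strand, GRCm38) had 2.05, 4.11, 7.27, 3.03 and 103 CPM in active rescue numbers 1 to 5 and 2.08, 4.98, 3.69, 4.37 and 64.7 CPM in dead rescue. It had 1.86, 3.56, 3.14, 8.79 and 72.6 CPM in shKdm6b against 1.73, 2.30, 4.31, 10.98 and 94.5 CPM in control. Number 5 was far above the other numbers in all 4 groups, and the groups overlapped. At low counts, the minor paralogue Cox4i2 was also higher in number 5, with 0.929 to 2.10 CPM against at most 0.709 CPM elsewhere. Cox6a2 had a mean log2 difference of 0.71 in number 5, with values that overlapped those of the other numbers. Among numbers, Ndufa4l2 differed with an adjusted p of 3.01e-09 (edgeR quasi-likelihood test with the number as a term), while shKdm6b over control gave a log2 fold change of -0.16 ± 0.31 (SE).

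Other genes were high in the same 4 libraries. A list of 8 genes induced in low oxygen, chosen after Ndufa4l2 was seen, summed to 1041 to 1324 CPM in number 5 against 324 to 699 CPM elsewhere. Within it, Pdk1, a kinase that restrains pyruvate dehydrogenase, had 111 to 156 CPM in number 5 and 25.0 to 42.7 CPM elsewhere, and Vegfa, an angiogenic growth factor, had 211 to 308 CPM against 67.1 to 111 CPM. Bnip3, Egln3 and P4ha1 were also higher in each number 5 library than in any other library. The remaining genes of the list overlapped: Adm had 201 to 246 CPM in number 5 against 57.5 to 297 CPM elsewhere. Ankrd37 had 4.42 to 5.41 CPM against 1.76 to 5.26 CPM, and Car9 2.79 to 6.19 CPM against 0.528 to 3.10 CPM. Glycolysis genes summed to 12651 to 15122 CPM in number 5. The fibroblast markers were highest in those libraries too. Ndufa4l2 is also known from pericytes, and a list of 9 pericyte and mural cell markers, also chosen after the data were seen, summed to 1292 to 1585 CPM in number 5, 1179 to 1508 CPM in number 3 and 567 to 1141 CPM in numbers 1, 2 and 4. Pdgfrb, a growth factor receptor of pericytes that fibroblasts also carry, had 239 to 274 CPM in number 5 and 56.1 to 219 CPM elsewhere. Rgs5 had 16.4 to 24.8 CPM in number 5 and 0.768 to 16.1 CPM elsewhere, and Abcc9 2.12 to 3.45 CPM against 0.0531 to 1.93 CPM. Kcnj8 had 0.817 to 2.19 CPM in number 5 and at most 0.886 CPM elsewhere, and Higd1b did not exceed 0.465 CPM in any library. The part of any of these in the Ndufa4l2 level was not tested.

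**Figure D1:**
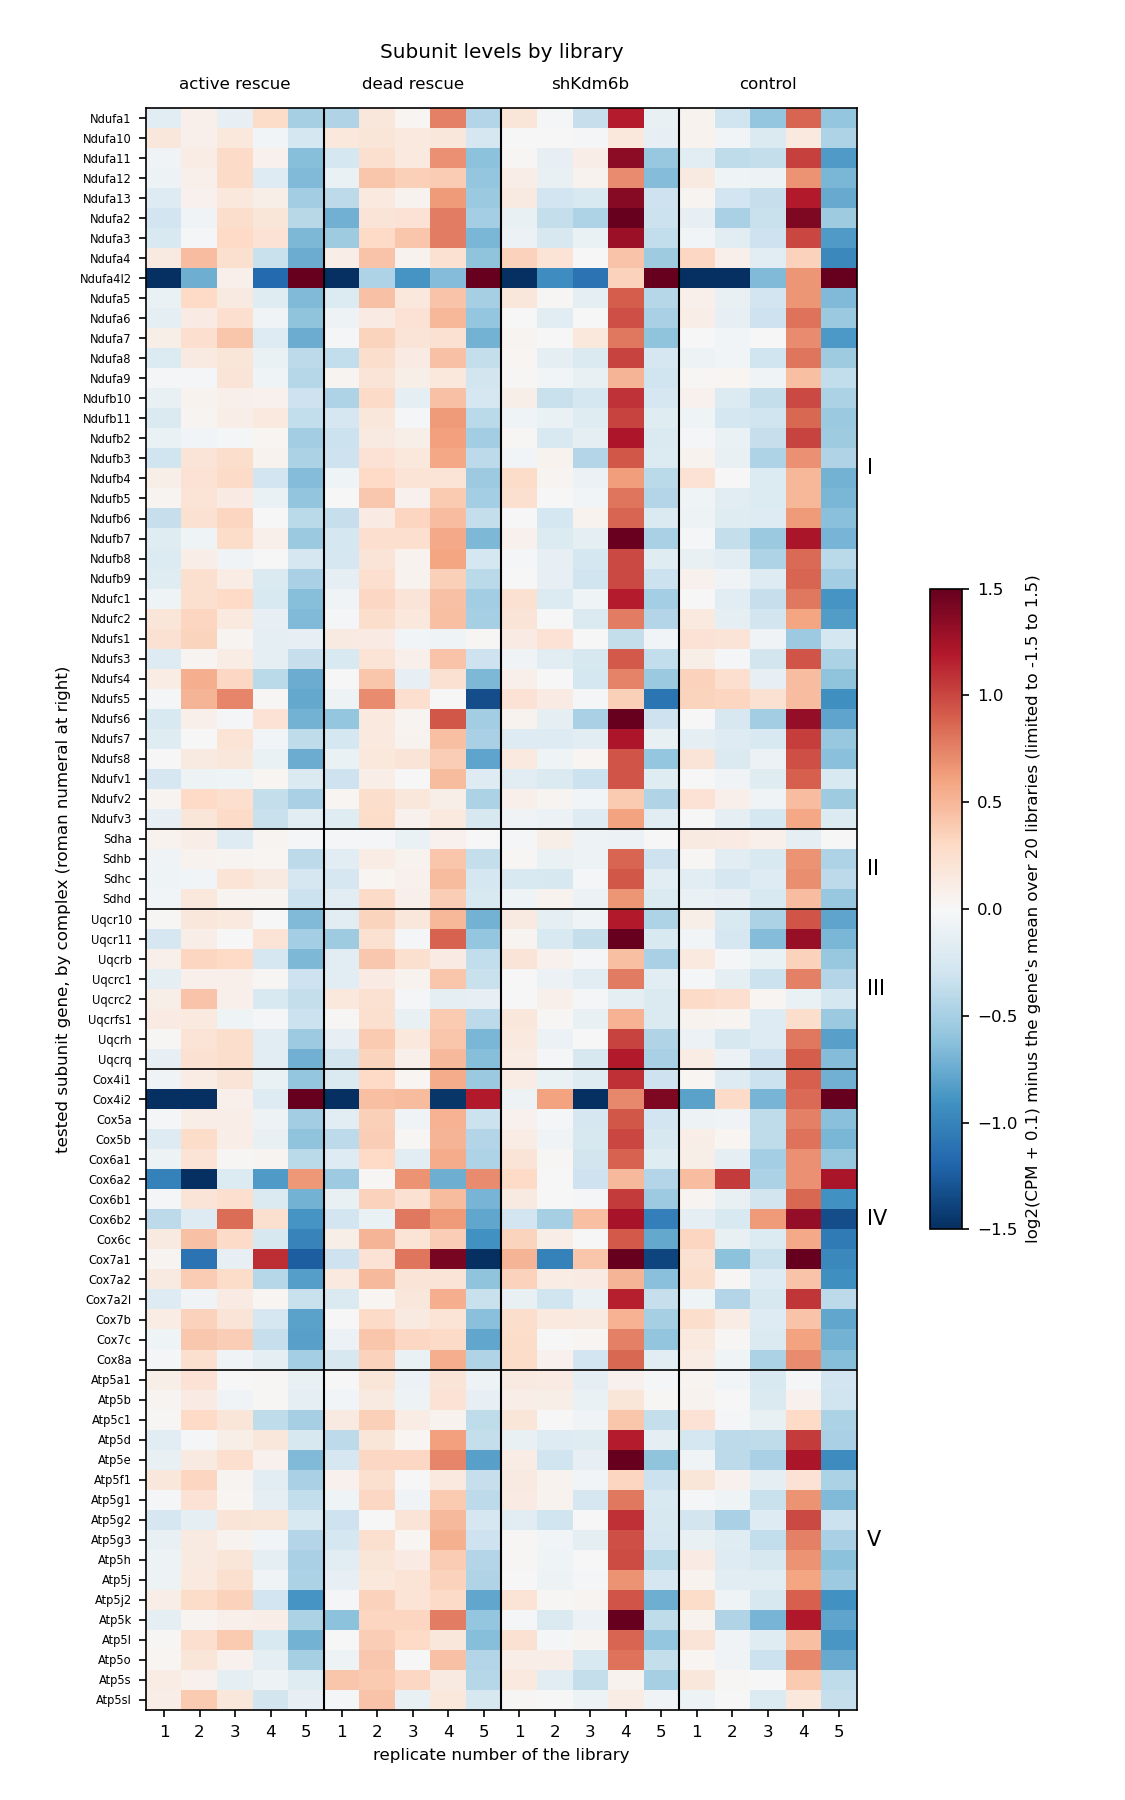
Heat map of 80 of the 81 tested subunit genes (in rows, by complex) in the 20 libraries (in columns, active rescue, dead rescue, shKdm6b and control from left to right, numbers 1 to 5 within each). Colour gives log2(CPM + 0.1) minus the mean of the gene, drawn up to 1.5 in either direction: number 5 is low for nearly every gene in each group, number 4 is high in dead rescue, shKdm6b and control, and Ndufa4l2 runs the other way.

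Most members moved together from library to library. The correlation of a member's log2 CPM with the mean of the other members had a median of 0.94 over the 20 libraries, and 51 of 81 members were above 0.9. The libraries of 1 number are related, so this describes 20 libraries that share numbers, depth and makeup, and no p is given. Cox4i1 came closest to the common pattern, with a correlation of 0.99. It had 451, 504, 533, 435 and 311 CPM in active rescue, 400, 572, 477, 683 and 316 CPM in dead rescue, 504, 436, 411, 999 and 375 CPM in shKdm6b, and 476, 408, 372, 868 and 282 CPM in control. The library numbered 5 was the lowest of each group, number 4 was the highest in 3 of the 4 groups, and the groups overlapped.

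A few members did not follow the rest. Besides Ndufa4l2 (correlation -0.40), these were Sdha, the flavoprotein that oxidises succinate in complex II (-0.38), and Ndufs1, the large iron-sulfur core subunit of complex I (-0.38), with Uqcrc2, a core subunit of complex III, at 0.14. Cox4i2 (-0.16) and Cox6a2 (-0.05), which rest on few counts, were also below 0. Sdha (a protein-coding gene at chr13:74322254-74350280, - strand, GRCm38) had 232, 240, 196, 229 and 221 CPM in active rescue, 222, 220, 210, 235 and 225 CPM in dead rescue, 221, 238, 212, 211 and 223 CPM in shKdm6b, and 245, 245, 236, 202 and 224 CPM in control. No number stood apart, and Sdha had the smallest spread of the 81 tested members, an SD of 0.09 on the log2 scale over the 20 libraries. Its partner Sdhd, a membrane anchor of complex II, had 103, 119, 109, 110 and 85.3 CPM in active rescue, 95.2, 130, 112, 138 and 90.7 CPM in dead rescue, 102, 110, 100, 169 and 91.6 CPM in shKdm6b, and 99.1, 98.2, 91.0, 148 and 72.0 CPM in control. Sdhd followed the common pattern, with number 5 lowest in every group.

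Ndufs1 had its lowest value of each group in number 4, where most subunits were high. It had 131, 141, 115, 102 and 103 CPM in active rescue, 123, 122, 108, 107 and 113 CPM in dead rescue, 122, 130, 111, 86.9 and 108 CPM in shKdm6b, and 129, 128, 108, 76.5 and 92.9 CPM in control. Ndufv1, the flavoprotein core subunit that takes the electrons of NADH in the same arm of complex I, had 76.5, 86.3, 86.9, 92.8 and 78.1 CPM in active rescue, 73.4, 97.6, 91.5, 127 and 79.4 CPM in dead rescue, 81.04, 78.5, 72.9, 174 and 80.5 CPM in shKdm6b, and 91.1, 87.5, 80.4, 169 and 77.6 CPM in control. So within number 4 the 2 genes stood at opposite ends of their own ranges.

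Summed over all members, the RNA level differed far more between numbers than between groups. The sum was 10734, 12337, 11791, 10380 and 8271 CPM in active rescue numbers 1 to 5, and 10035, 12960, 11277, 14133 and 8441 CPM in dead rescue. It was 11659, 10785, 10031, 18463 and 9151 CPM in shKdm6b against 11352, 10265, 9128, 16484 and 7618 CPM in control. The group means were 10703 ± 1571 CPM in active rescue, 11369 ± 2266 CPM in dead rescue, 12018 ± 3720 CPM in shKdm6b and 10969 ± 3379 CPM in control (SD, n = 5 each), so the group means lay within the SD of each group. Pair by pair, the sum was higher in shKdm6b than in control of the same number in 5 of 5 pairs. The highest library exceeded the lowest 3.14-fold for the complex IV sum, 2.74-fold for complex III, 2.61-fold for complex I, 2.01-fold for complex V and 1.72-fold for complex II.

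**Figure D2:**
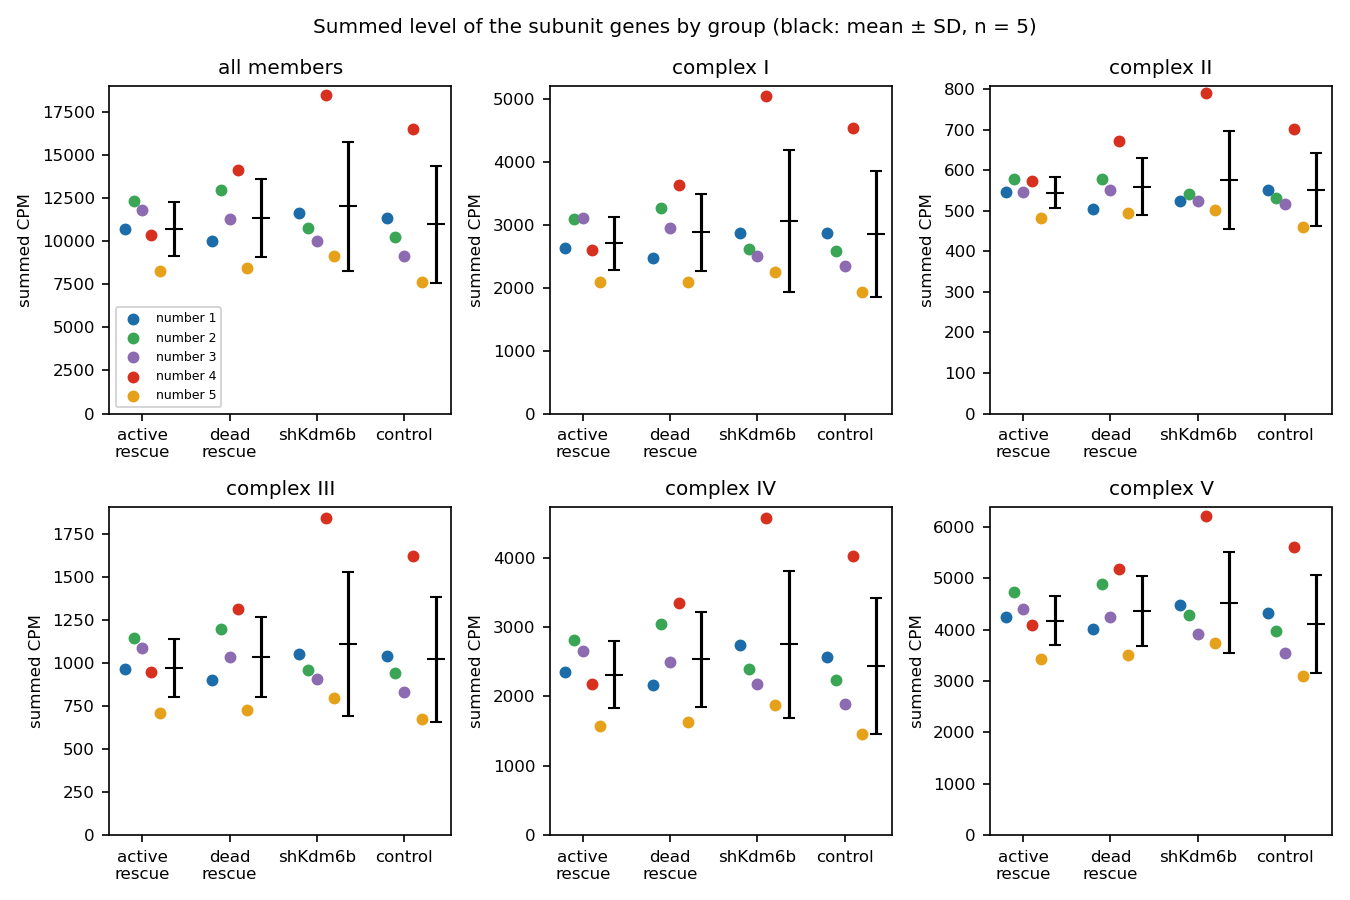
Summed CPM of the subunits of each complex (y axis, from 0) in active rescue, dead rescue, shKdm6b and control (x axis), 1 point per library marked by its number, with the mean and SD of 5 libraries. In shKdm6b and control, number 4 lies above the other libraries for every complex, and number 5 is the lowest library in all 4 groups.

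The replicate number was a difference that most genes shared. In a fit with number and group, 77 of 81 members (95.1%) differed among numbers at an adjusted p of at most 0.05, beside 84.7% of all tested genes; this test was added after the data were seen. The 4 members that did not pass were Atp5sl, Ndufv3, Sdha and Cox6a2, with adjusted p-values of 0.068, 0.118, 0.46 and 0.465 (edgeR). Averaged over the 4 groups, number 4 lay above the other numbers for 76 of 81 members, with a median log2 difference of 0.62, and number 5 lay above them for 3 of 81, with a median of -0.55. The medians over all tested genes were -0.02 and 0.04. Active rescue did not share the rise of number 4: its summed level there, 10380 CPM, was below that of its numbers 1 to 3.

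The size of these differences went with transcript length. Over members, the number 4 difference and log transcript length correlated with Pearson r = -0.52 and Spearman rho = -0.46 (n = 81 genes), and over all tested genes with r = -0.47 and rho = -0.54 (n = 15161 genes). The number 5 difference had r = 0.21 and rho = 0.58 over members and r = 0.32 and rho = 0.42 over all tested genes. These genes share the same libraries, so no p is given. In number 4, members with transcripts under 600 bases had a median log2 difference of 0.84 and other genes of that length above 16 CPM 0.81. Members of 600 to under 900 bases had 0.67 against 0.75 for the others, those of 900 to under 1500 bases 0.54 against 0.57, and those of 1500 to under 3000 bases 0.17 against 0.15. In these 4 classes members thus differed from other genes of their length by less than 0.1 in number 4. In number 5 they lay below them, at -0.79, -0.55, -0.51 and -0.30 for the same 4 length classes, against -0.44, -0.42, -0.31 and -0.09 for the others. The median of members was thus positive in number 4 and negative in number 5 in each of these classes. The single member of 3000 bases or more had 0.70 in number 4 and -0.34 in number 5, against -0.48 and 0.21 for the others. These length classes were chosen after the data were seen.

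Other RNA classes also moved with the number. The nuclear long noncoding RNA Malat1 had 217 to 997 CPM in numbers 4 and 5 against 4422 to 6888 CPM in numbers 1 to 3, and the ribosomal RNA transcript Rn45s took 0.206 to 7.24% of a library's counts. Cytosolic ribosomal protein genes, which are short as well, had a median log2 difference of 0.82 in number 4 and -0.18 in number 5. The part of cell makeup, RNA quality or library preparation in the number differences was not tested.

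**Figure D3:**
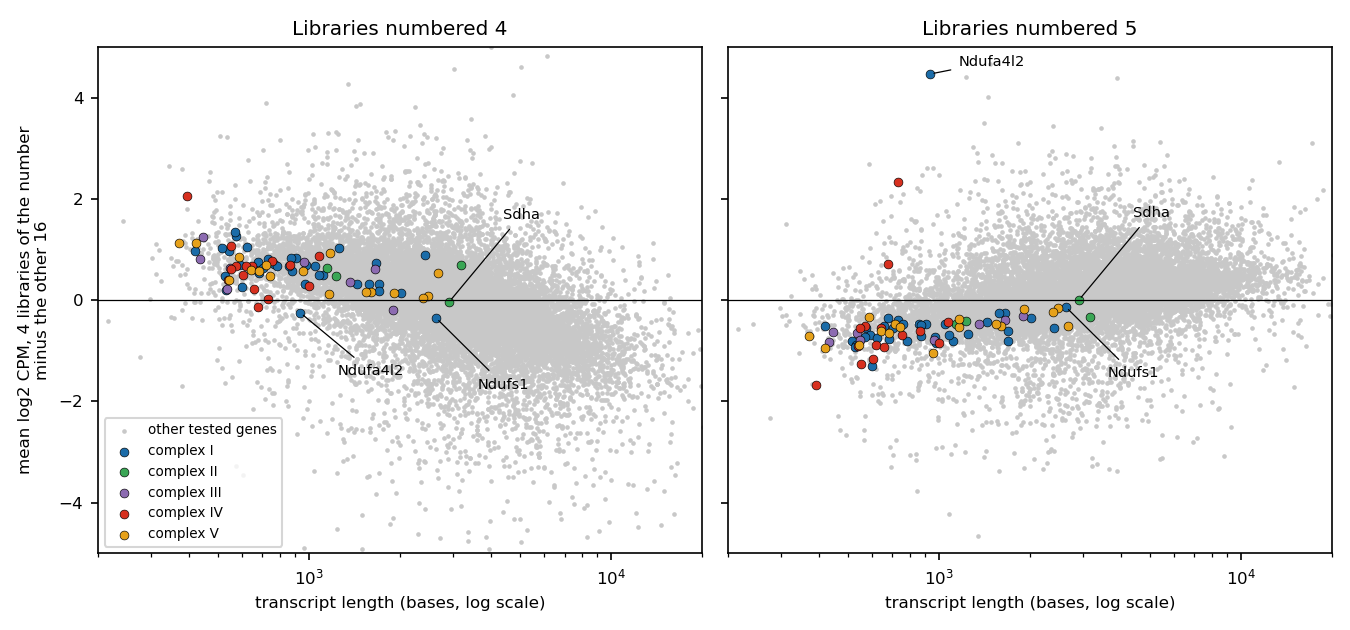
Mean log2 CPM of the 4 libraries of a number minus the mean of the other 16 (y axis, drawn from -5 to 5, with a few genes outside) against transcript length in bases (x axis, log scale), for number 4 on the left and number 5 on the right; coloured points are 80 tested subunit genes by complex and grey points the other tested genes. Most short transcripts, subunits included, lie above 0 in number 4, most subunits lie below 0 in number 5, and Ndufa4l2 is high in number 5.

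Member promoters were searched for the motifs of factors known to drive nuclear genes of mitochondrial proteins. RefSeq windows on GRCm38.p6, running from 250 bases before to 50 after the annotated start, were found for 69 members and not for 15. The motif of nuclear respiratory factor 1 (NRF1), with the fifth base left free and read on either strand, was in 17 of 69 member windows (24.6%) and in 10.2% of the windows of 11967 other tested genes. Its strict form, which reads the same on both strands, was in 5 (7.25%) against 2.03%. The ETS motif CCGGAAGT, bound by GABPA, was in 5 (7.25%) against 8.01%, and the YY1 motif ATGGCGGC in 7 (10.1%) against 4.98%. Of the 69 members, 42 held none of these letters, which says nothing about binding. The 5 genes with the strict NRF1 form are shown because they hold the closest matches, with the motif in capitals and 10 bases to either side, 5′ to 3′ on the strand of the gene, together with Sdha, whose window held 3 matches to the looser form although its RNA did not follow the common pattern.
Ndufa11 (chr17:56717692-56717721, + strand, motif 60 bases before the start): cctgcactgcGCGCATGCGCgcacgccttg
Cox6a1 (chr5:115349101-115349130, - strand, motif 162 bases before the start): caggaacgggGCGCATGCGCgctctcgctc
Atp5g2 (chr15:102671070-102671099, - strand, motif 42 bases before the start): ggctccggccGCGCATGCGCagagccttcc
Atp5k (chr5:108434430-108434459, - strand, motif 50 bases before the start): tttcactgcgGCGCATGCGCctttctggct
Uqcrc1 (chr9:108936668-108936697, + strand, motif 31 bases after the start): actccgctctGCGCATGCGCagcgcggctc
Sdha (chr13:74350276-74350305, - strand, motif 55 bases before the start): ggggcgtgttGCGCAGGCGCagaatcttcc

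The shKdm6b cultures were compared with control to ask which genes differ when Kdm6b is lowered. Subunit transcripts were slightly higher in shKdm6b than in the control of the same number, and no member passed the test over all 20 libraries. The median log2 fold change of the 81 members was 0.13 both without and with the replicate number as a block, and 69 of 81 were positive with the block. By complex the medians with the block were 0.12 for I, 0.12 for II, 0.14 for III, 0.17 for IV and 0.14 for V. Among members, 0 passed an adjusted p of 0.05 in edgeR's quasi-likelihood test without the block, beside 0.00654% of all tested genes, and 0 with it, beside 4.14%. No member had an unadjusted p of at most 0.05 in either fit, beside 3.12 and 14.9% of all genes. DESeq2 over all libraries called 0 members in either form. The median moved when 1 library of a pair was left out. Without the shKdm6b library numbered 4 it was -0.16 without the block and 0.00048 with it, and without the control library numbered 4 it was 0.34 and 0.21. Without the shKdm6b library numbered 5 it was 0.23 and without the control library numbered 5 it was 0.017, both without the block. Leaving out all 4 libraries numbered 4 gave 0.11 with the block.

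Pair by pair the shift was small and had 1 direction. The median over members was 0.04, 0.05, 0.14, 0.15 and 0.26 on the log2 scale in numbers 1 to 5, and 52, 53, 69, 70 and 74 of 81 members were higher in shKdm6b than in control. The all-gene medians of these 5 pairs lay between 0 and 0.02. In 37 of 81 members (45.7%) all 5 pairs were higher, beside 12.9% of all tested genes, and in 2 members (2.47%), Atp5s and Ndufs5, all 5 were lower, beside 11.9%. The 37 comprised 12 of 37 tested members of complex I, 2 of 4 of complex II, 6 of 8 of complex III, 8 of 15 of complex IV and 9 of 17 of complex V. Members share their 10 libraries, so these counts describe 5 pairs and not 81 separate trials. No member had groups that did not overlap, beside 0.857% of all genes.

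A fit of shKdm6b and control alone, with the number as a block, was added after the fits over all libraries had called no member. It called 15 of 81 members (18.5%) higher and 0 lower, beside 5.87% of 14749 tested genes higher and 6.26% lower. At an unadjusted p of at most 0.05 it had 40 members higher (49.4%) and 1 lower (1.23%), beside 14.1 and 13.2% of all genes. The count was not stable: it was 1 without the pair numbered 5, 4 without pair 3, 7 without pair 2, 10 without pair 4 and 14 without pair 1. Without the block, the fit of these 2 groups called 0 members. The genes named from it below were chosen after their values were seen.

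Of complex I, 5 of 37 tested members passed in that fit, all accessory subunits of the membrane arm: Ndufa11, Ndufa1, Ndufb5, Ndufb7 and Ndufc1. Ndufa11 (a protein-coding gene at chr17:56717767-56722141, + strand, GRCm38) had 73.0, 66.2, 77.4, 183 and 48.6 CPM in shKdm6b against 63.9, 55.5, 56.2, 146 and 40.05 CPM in control. Every shKdm6b library was above the control of its number, while the groups overlapped because number 4 was high in both. With the 2 groups and the block, edgeR gave a log2 fold change of 0.30 with an SE of 0.05 and an adjusted p of 0.00559, and 0.30 ± 0.18 with an adjusted p of 0.475 when all libraries were fitted. Ndufa1 had 59.0, 51.0, 40.9, 117 and 48.1 CPM in shKdm6b against 53.8, 42.2, 34.6, 94.8 and 34.7 CPM in control (0.29 ± 0.06, adjusted p = 0.0115). Ndufc1 was higher in 4 of 5 pairs, the single gene of the 15 without all 5.

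For 6 core genes of complex I the values ran from below 0 to slightly above the complex I median of 0.12 in the blocked fit of all libraries. The core genes Ndufs1, Ndufs3, Ndufs7, Ndufs8, Ndufv1 and Ndufv2, which carry electrons from NADH to ubiquinone, had log2 fold changes between -0.07 and 0.14 in the blocked fit of all libraries. None of the 6 was called in the 2-group fit, beside 5.87% of all genes called higher there, and none had all 5 pairs higher, beside 12.9%. Among 6 genes, counts of 0 lie near these shares. The difference between core and accessory subunits was not tested. Ndufs5, an accessory subunit, went the other way with 44.2, 41.7, 37.3, 48.8 and 17.7 CPM in shKdm6b against 48.3, 47.7, 44.7, 52.6 and 20.1 CPM in control. It was lower in each pair (-0.17 ± 0.06, adjusted p = 0.0846 in the 2-group fit, which misses the threshold). Of its 31-base stretches 26.5% also occur in BC002163, a gene with 22.1 to 116 CPM of its own, so reads may have been split between them. BC002163 had 50.1, 40.1, 39.7, 116 and 40.3 CPM in shKdm6b against 38.1, 32.7, 22.1, 90.2 and 28.9 CPM in control. It was thus higher in each pair where Ndufs5 was lower. The part of such a split in the Ndufs5 values was not tested.

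In complex III the 3 called members were small subunits: Uqcrh, the acidic hinge protein that helps cytochrome c bind, Uqcr10 and Uqcr11. Uqcrh had 132, 113, 120, 243 and 87.6 CPM in shKdm6b against 113, 102, 105, 207 and 68.0 CPM in control. Each shKdm6b library was above its pair (0.23 ± 0.05, adjusted p = 0.0133). In the same 2-group fit the core subunit Uqcrc1 (0.11 ± 0.05, adjusted p = 0.202) was not called, although it was higher in all 5 pairs. The core subunit Uqcrc2 (-0.10 ± 0.06, adjusted p = 0.266) and the Rieske iron-sulfur protein Uqcrfs1 (0.16 ± 0.06, adjusted p = 0.107) were not called either. In complex II 0 of 4 members were called, with Sdhd at 0.18 ± 0.05 (adjusted p = 0.0578) and Sdha at -0.05 ± 0.05 in the 2-group fit.

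In complex IV, 4 of 15 tested members were called: Cox6a1, Cox6b1, Cox6c and Cox8a, all small nuclear subunits around the mitochondrially made core. Cox6a1 had 393, 349, 284, 635 and 303 CPM in shKdm6b against 365, 313, 242, 553 and 232 CPM in control (0.22 ± 0.05, adjusted p = 0.0249). Cox8a had 507, 438, 343, 763 and 374 CPM in shKdm6b against 452, 400, 301, 686 and 268 CPM in control (0.22 ± 0.06, adjusted p = 0.0326). In both genes all 5 pairs were higher, and the ratio of the pair was widest in number 5. Cox6a2, the minor paralogue of Cox6a1, had 0.875, 0.691, 0.54, 1.01 and 0.484 CPM in shKdm6b against 0.996, 1.55, 0.472, 1.18 and 1.75 CPM in control, and was higher in 1 of 5 pairs (-0.66 ± 0.35, adjusted p = 0.259).

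In complex V, 3 of 17 tested members were called: Atp5e and Atp5d, the epsilon and delta subunits of the rotating central stalk, and Atp5g3, a source of subunit c. Atp5e had 123, 92.3, 105, 338 and 74.98 CPM in shKdm6b against 110, 86.8, 80.8, 266 and 59.3 CPM in control (0.26 ± 0.06, adjusted p = 0.0126). The same fit gave Atp5g3 0.19 ± 0.05 (adjusted p = 0.0287). The catalytic hexamer genes Atp5a1 and Atp5b were also higher in all 5 pairs without passing. Atp5a1 had 916, 913, 760, 873 and 820 CPM in shKdm6b against 858, 815, 712, 822 and 686 CPM in control (0.14 ± 0.05, adjusted p = 0.104). Atp5b had 1274, 1261, 1108, 1343 and 1200 CPM in shKdm6b against 1237, 1190, 1020, 1241 and 968 CPM in control (0.13 ± 0.05, adjusted p = 0.138). Atp5s, also called factor B, had 8.26, 6.64, 5.79, 7.73 and 5.27 CPM in shKdm6b against 8.44, 7.59, 7.49, 9.80 and 5.72 CPM in control, lower in every pair (-0.21 ± 0.12, adjusted p = 0.291).

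**Figure D4:**
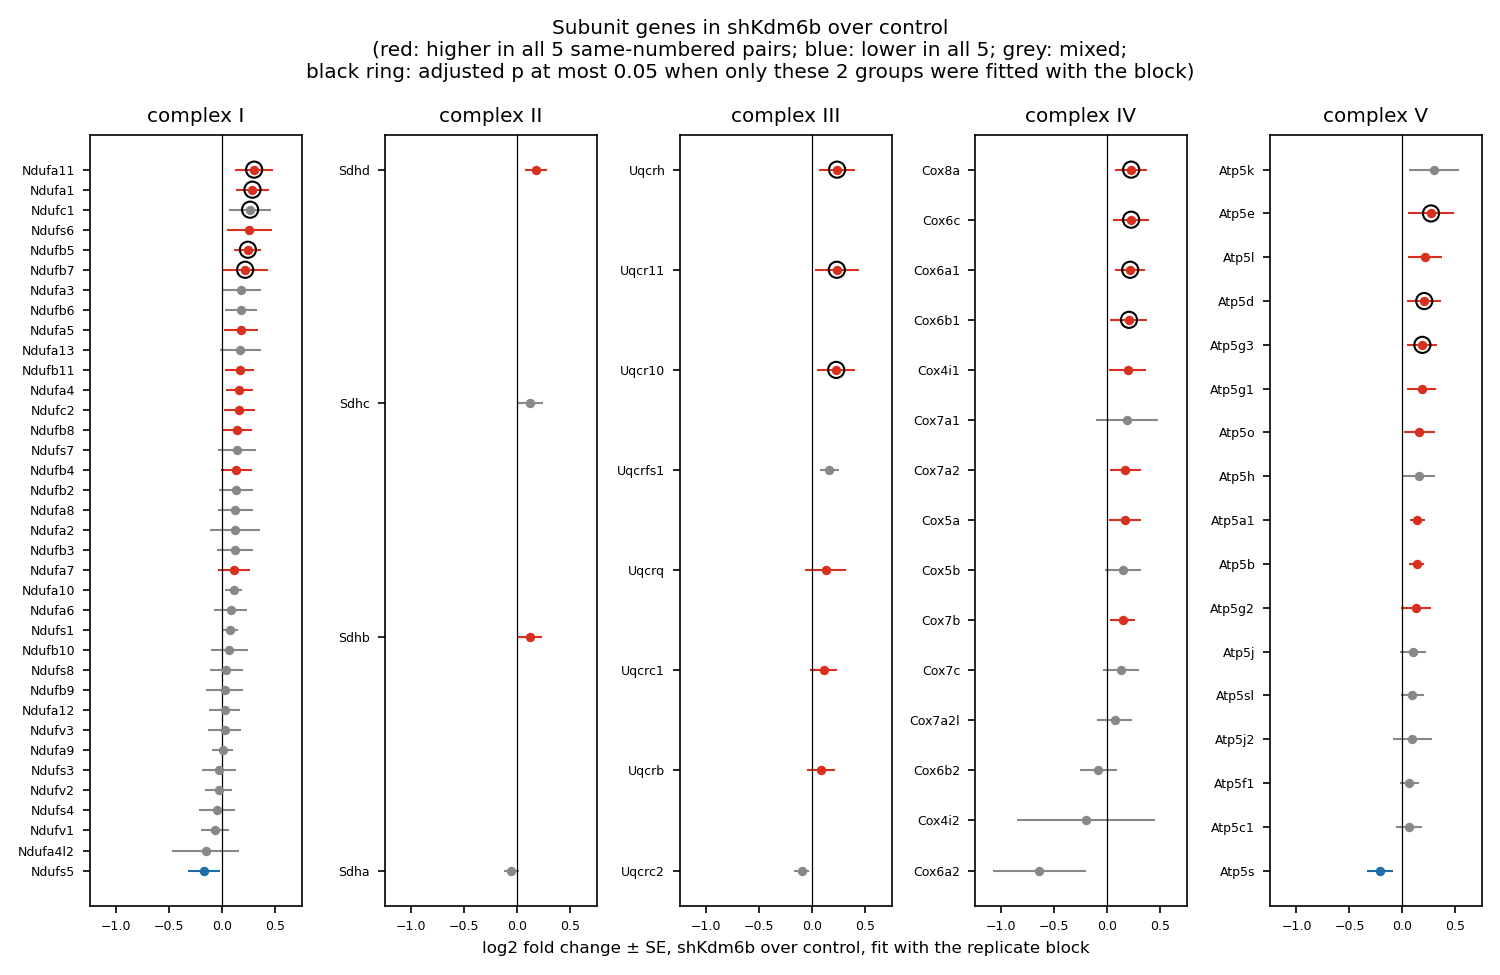
Log2 fold change of shKdm6b over control for 80 of the 81 tested subunit genes (x axis, points with SE from the fit of all 20 libraries with the replicate block), by complex. Red marks the 37 genes higher in all 5 same-numbered pairs, blue the 2 genes lower in all 5 and a black ring the 15 genes called when these 2 groups were fitted alone; most points lie between 0 and 0.30.

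The called members had short transcripts. In the 2-group fit, 8 of 22 members under 600 bases were called higher (36.4%), 5 of 23 of 600 to under 900 bases (21.7%), 2 of 18 of 900 to under 1500 bases (11.1%) and 0 of 17 of 1500 to under 3000 bases. Other genes above 16 CPM were called higher in 8.54, 9.92, 10.2 and 7.44% of cases in the same length classes. By pairs, 63.6, 47.8, 44.4 and 23.5% of members in these classes were higher in all 5, against 25.6, 23.8, 20.5 and 16.8% of the others. In both sets the share with all 5 pairs higher was larger under 600 bases than at 1500 to under 3000 bases.

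Genes of neighbouring pathways went through the same tests. The 2-group fit called 5.87% of all genes higher and 6.26% lower, and 1 gene of 16 or 19 lies near those shares. In the 2-group fit 0 of 81 cytosolic ribosomal protein genes were called, and 2 of 77 mitochondrial ribosomal protein genes were higher and 2 lower. Of 16 genes of the citric acid cycle, which feeds NADH and succinate into the chain, 1 was higher; of 44 assembly factors of the complexes 1 was higher; and of 16 regulators of mitochondrial biogenesis 1 was higher. Of 10 genes for ATP and ADP exchange and cytochrome c, 3 were higher. Of 19 glycolysis genes 1 was higher and 1 lower. The median log2 fold change was 0.06 for the cytosolic and 0.05 for the mitochondrial ribosomal proteins, 0.07 for the citric acid cycle and 0.13 for the subunits, beside 0.01 over all genes. All 5 same-numbered pairs were higher in 5 of 10 exchange and cytochrome c genes and 5 of 16 citric acid cycle genes. The same held for 19 of 81 cytosolic and 8 of 77 mitochondrial ribosomal protein genes. It held for 4 of 44 assembly factors, 3 of 16 regulators and 1 of 19 glycolysis genes, beside 12.9% of all genes. All 5 were lower in 6 of 19 glycolysis genes and in at most 6.25% of any other list, beside 11.9% of all genes. The difference between these lists and the subunits was not tested.

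Markers of cell types were counted in the 2-group fit, which called 5.87% of all genes higher and 6.26% lower. A count of 0 or 1 in lists this short lies near those shares. In the same fit, 2 of 14 granule neuron markers were higher and 3 lower, 3 of 12 astrocyte and Bergmann glia markers were higher and 1 lower, 0 of 9 meningeal fibroblast markers were higher and 5 lower, and 0 of 12 microglia markers were higher and 1 lower. Of 7 pericyte and mural cell markers 1 was higher and 3 lower, of 7 Purkinje and GABAergic interneuron markers 1 was higher and 2 lower, and of 10 oligodendrocyte lineage markers 0 were higher and 1 lower. Of 8 genes induced in low oxygen 0 were higher and 1 lower, and 0 of 5 endothelial and 0 of 5 muscle markers were called. The summed granule markers were 6862 ± 2819 CPM in shKdm6b against 7249 ± 2505 CPM in control, and the fibroblast markers 11542 ± 8250 CPM against 14508 ± 10898 CPM (SD, n = 5 each). Their part in the subunit values was not tested.

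The rescues were set against shKdm6b to see what the human domain adds to the knockdown. Neither rescue gave a common direction: the subunits were lower than in shKdm6b in some numbers and higher in others. In active rescue over shKdm6b the member median was -0.14, 0.22, 0.27, -0.999 and -0.14 in numbers 1 to 5, with 13, 78, 79, 2 and 10 of 81 members higher. In dead rescue over shKdm6b it was -0.23, 0.34, 0.22, -0.46 and -0.11, with 7, 78, 75, 8 and 12 members higher. Numbers 2 and 3 thus went up and numbers 1, 4 and 5 down in both rescues, which share the shKdm6b libraries. In edgeR 0 members were called in either comparison without the block, beside 0% of all genes, and 0 with it, beside 0.00654% of all genes for the active and 0% for the dead rescue. The member medians with the block were -0.14 and -0.05, and both were 0.06 without the 4 libraries numbered 4. At an unadjusted p of at most 0.05 there were 0 members without the block in either, beside 0.327% of all genes for the active and 0.164% for the dead rescue; with it there were 0 for the active rescue, beside 3.78%, and 1 for the dead rescue, beside 1.4%. Neither comparison had a member whose groups did not overlap, beside 0.0523 and 0.0458% of all genes, and DESeq2 called 0 members in both.

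Atp5s was the single member with all 5 pairs in one direction in either of these comparisons. It had 10.04, 9.86, 9.26, 8.23 and 5.51 CPM in dead rescue against 8.26, 6.64, 5.79, 7.73 and 5.27 CPM in shKdm6b, higher in each pair, and all 5 pairs were higher in 1.75% and lower in 1.54% of all genes. In active rescue over shKdm6b those shares were 2.66 and 1.64%, with 0 members in either direction. The groups overlapped, and the adjusted p was 1.00 (edgeR with the block).

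Active and dead rescue differ in the catalytic activity of the domain. No member was called between them by edgeR, with 0 members beside 0% of all genes without the block and 0 beside 0.00654% with it, nor by DESeq2. At an unadjusted p of at most 0.05 there were 0 members in both fits, beside 0.242% of all genes without the block and 2.72% with it. The member median was 0.09, -0.10, 0.05, -0.49 and -0.03 in numbers 1 to 5, with 68, 11, 58, 2 and 28 of 81 members higher in active rescue, so the direction changed with the number. No member was higher in all 5 pairs, beside 3.49% of all genes, and none had groups that did not overlap, beside 0.0523%. In Cox6a2 all 5 pairs were lower, which 2% of all genes showed: 0.293, 0.148, 0.588, 0.342 and 1.15 CPM in active rescue against 0.445, 0.705, 1.17, 0.38 and 1.19 CPM in dead rescue. At these levels the gene rests on few counts, and its adjusted p was 1.00 (edgeR with the block).

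**Figure D5:**
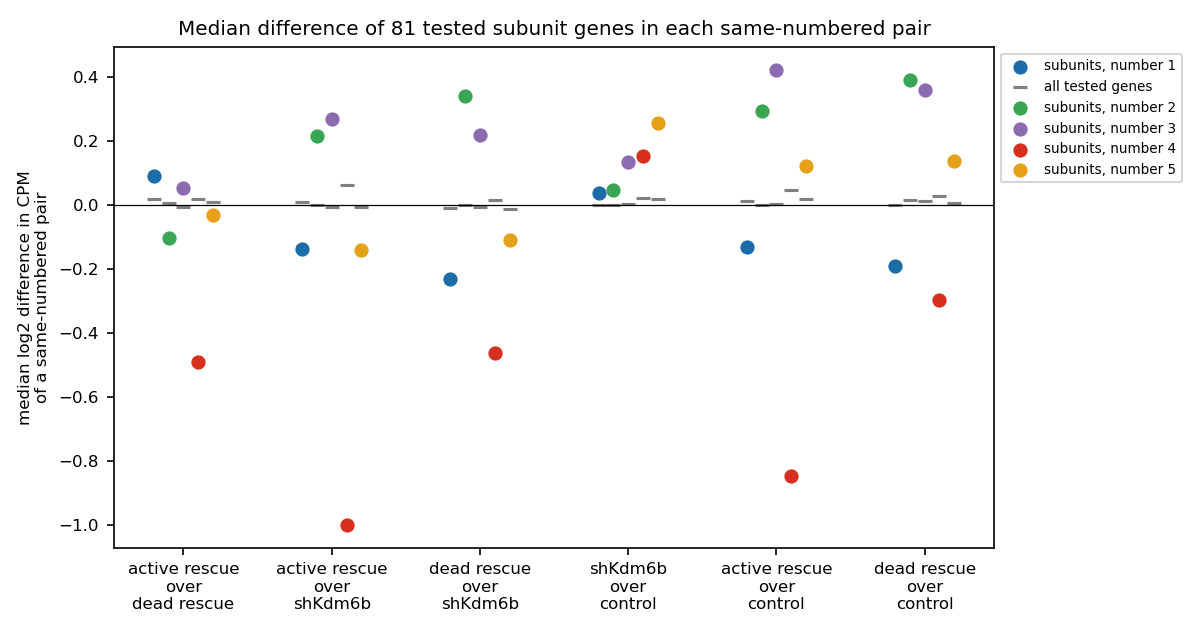
Median log2 difference of the 81 tested subunit genes within each same-numbered pair (y axis) for the 6 comparisons (x axis), 1 point per number, with grey dashes for the median of all tested genes in the same pair. In shKdm6b over control the 5 points lie between 0.04 and 0.26, while every comparison that includes a rescue has points on both sides of 0, with number 4 the lowest in each.

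Set against control, which both comparisons share with shKdm6b over control, the rescues again varied by number. In active rescue over control the member median was -0.13, 0.30, 0.42, -0.84 and 0.12 in numbers 1 to 5, with 18, 75, 79, 3 and 65 of 81 members higher. In dead rescue over control it was -0.19, 0.39, 0.36, -0.29 and 0.14, with 6, 77, 78, 7 and 70 members higher. With the block 0 members were called in either, beside 1.96 and 1.18% of all genes, and without it 0 members beside 0% of all genes in both, and DESeq2 called 0 in both. At an unadjusted p of at most 0.05, active rescue over control had 1 member without the block, beside 2.53% of all genes, and 1 with it, beside 13%. Dead rescue over control had 0 without it, beside 1.81%, and 2 with it, beside 10.7%. No member had groups that did not overlap, beside 0.667% of all genes for the active and 0.51% for the dead rescue. The member medians with the block were -0.002 and 0.08, and 0.15 in both without the libraries numbered 4.

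The members with all 5 pairs higher over control were few. They were Atp5a1 and Ndufs1 for active rescue (2.47% of members, beside 6.83% of all genes), and Ndufa10, an accessory subunit of complex I, and Atp5sl for dead rescue (2.47%, beside 6.48%). No member had all 5 pairs lower in either, beside 4.51 and 5.65% of all genes. Atp5a1 had 887, 971, 830, 844 and 773 CPM in active rescue, 835, 950, 788, 955 and 795 CPM in dead rescue, 916, 913, 760, 873 and 820 CPM in shKdm6b, and 858, 815, 712, 822 and 686 CPM in control. In the dead rescue 1 pair was below its control. The spread of pair medians was 0.502 in active rescue over control and 0.313 in dead rescue over control, against 0.0889 in shKdm6b over control (SD of 5 pairs on the log2 scale).

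The largest fitted change of any member against control was that of Cox6a2 in active rescue, at -1.32 with an adjusted p of 0.187 (edgeR with the block). In the same edgeR fit of all 20 libraries with the block, the smallest adjusted p-values of members were 0.377 for Atp5a1 in shKdm6b over control and 0.405 for Ndufa10 in dead rescue over control. In Ndufa10, active rescue had 83.1, 77.8, 82.6, 71.7 and 61.2 CPM and dead rescue 82.0, 83.5, 81.4, 82.7 and 61.9 CPM, against 76.2, 71.8, 63.4, 81.4 and 53.7 CPM in control. The dead rescue was above its control in each pair, by little in number 4, and the groups overlapped.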

How the data were processed

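The authors deposited 1 table of estimated counts per gene, with a column for each of the 20 libraries. Its name points to salmon as the tool, and mm10 is the build named by the submitters' processing notes; for the salmon version, annotation, strand setting and filters, nothing is given in the sources used here. Between 7.03 and 11.2% of a library's values were not whole, so they were rounded first. Within a group, chi-square per degree of freedom between libraries was 28.7 to 410, far above counting noise, and every library counted as 1 sample.

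After filterByExpr and TMM scaling, all 20 libraries entered 1 two-sided, robust quasi-likelihood fit of edgeR 4.0.16 under R 4.3.3, with group as the only term. P-values were adjusted by Benjamini-Hochberg over the 15284 genes tested, and a gene was called at 0.05 or less. CPM were computed from TMM-scaled totals, and log2 CPM with a prior count of 1. The alternative fit had the replicate number as an additive block. To see whether numbers pair the samples, deviations from group means were correlated across genes: r was 0.361 to 0.881 in the 30 pairs of equal number and had a median of -0.205 in the 120 others. Every equal-numbered pair was above the limit of 0.1, so the numbers were taken as pairs on the strength of the data, since the labels do not say so. With the block the biological coefficient of variation was 0.179, against 0.392 without it, on 12 and 16 residual degrees of freedom. Kdm6b was tested with an exact permutation test on log2 CPM. The fits were tested on simulated data.

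The members and the gene lists were chosen with earlier results of these data known. The lists of hypoxia and mural cell genes, the length classes, the test among numbers and the fits of shKdm6b and control alone with the block, with their alternatives, were added after seeing the data. Genes were named by rule: members passing a test, the paralogue groups, the highest and lowest member of each complex, those with the 3 largest changes per comparison among members with all 5 pairs in 1 direction, the smallest and largest spreads and core subunits. Alternatives were RLE factors, TMM factors without the members and ribosomal protein genes, no filter, DESeq2 1.42.0, fewer groups, and leaving out libraries. Transcript lengths are medians of the principal transcripts of GENCODE vM21 (GRCm38), found for 84 members and 15161 tested genes; promoter windows are RefSeq's. Stretches of 31 bases shared with other genes of the table exceeded 10% in 3 members, Ndufs5, Cox7c and Atp5o. 1 member is not reported here by itself and is counted in the totals.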

Additional observations from a re-analysis of the deposited data

Results flagged for a closer look

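Of 156 groups of 5 libraries examined, 15 held 1 library that stood far from the other 4 (gap over range above 0.71), where chance gives about 1 in 20. The groups are genes and sums measured in the same 20 libraries, so they are not 156 separate trials. Of the 15 flags, 10 fell on number 4 and 5 on number 5. Number 4 was high in shKdm6b for the complex II sum (791 CPM), Atp5g3 (503 CPM), Sdhb (170 CPM) and Uqcrc1 (365 CPM). It was high in both shKdm6b and control for Atp5g2 (279 and 261 CPM), Cox7a2l (214 and 199.9 CPM) and Ndufv1 (174 and 169 CPM). Number 5 was low for Ndufs5 in shKdm6b and control (17.7 and 20.1 CPM), for Sdhb in active rescue (70.5 CPM) and for Ndufa10 in dead rescue (61.9 CPM), and it was high for Ndufa4l2 in dead rescue (64.7 CPM).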

How the results depend on the processing

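The fits over all 20 libraries called 0 members in each comparison, with or without the block, with RLE factors, TMM factors without members and ribosomal protein genes, no filter, DESeq2, or any library or number left out. For shKdm6b over control the fit of these 2 groups alone with the replicate block called 15 members, 14 with RLE factors, 11 with TMM factors without members and ribosomal protein genes, 7 with no filter and 11 with DESeq2; with 1 library or 1 pair left out it called 1 to 16: 14, 7, 4, 10 and 1 without pairs 1 to 5, 16, 7, 4, 13 and 1 without shKdm6b 1 to 5, and 8, 7, 4, 14 and 1 without control 1 to 5. In the other 5 comparisons that fit called 0 members. Over all genes shKdm6b over control had 1 call without and 632 with the block (445 in numbers 1 to 3 alone), 1789 in the 2-group fit, and 64 and 944 with DESeq2 without and with the block. The member median there was 0.11 to 0.13 under each scaling, and -0.16 to 0.34 with 1 library left out (-0.16 and 0.00048, without and with the block, without shKdm6b 4; 0.23 without shKdm6b 5; 0.34 without control 4; 0.017 without control 5). The Kdm6b difference was -0.83 with a sign-flip p of 0.0625, the smallest the exact test of 5 replicate pairs can give, and -1.02 to -0.57 with 1 library left out. The cause of these moves was not tested. Members near 1 CPM, such as Cox6a2 and Cox4i2, are limited by depth.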
